A study of Mus musculus with 12 samples.

Results

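The 9 genes described here are members of the Hedgehog signalling pathway and Gas1, a surface coreceptor of the same pathway: Gas1, Cdon, Boc, Ptch1, Smo, Gli1, Gli2, Gli3 and Hhip. They were matched by gene name in the deposited tables of both treatment times, and all 9 were found among 29030 genes. The set was chosen by name with the response to treatment at 4 h and at 24 h already known. The values of these 9 genes in every comparison are therefore a description and carry no test here; "called" means past an edgeR adjusted p of 0.05 in the fit of all genes. RNA was sequenced from primary fibroblasts, the connective tissue cells that lay down matrix, isolated from the hearts of C57BL/6 mice and cultured in DMEM with 10% serum. Cells received the ethanol vehicle (ETOH) or 6 µM MCB-613-10-1, a small molecule derived from MCB-613, and were harvested after 4 h or 24 h. Each of the 4 groups had 3 libraries, and the labels name no genetic change in any group. The study asked which genes of these fibroblasts take part in the anti-fibrotic action of the compound.

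In vertebrates, Hedgehog ligands are received at the primary cilium. The receptor Ptch1 holds the membrane protein Smo inactive until a ligand binds to Ptch1 together with the coreceptors Gas1, Cdon or Boc. Freed Smo then acts through the zinc-finger transcription factors Gli2 and Gli3, whose targets include Gli1, Ptch1 and Hhip, so the last 3 are widely used as readouts of the pathway. Gas1 was first known as a gene expressed in growth-arrested fibroblasts, and its transcription is known to be repressed by Hedgehog signalling in embryonic tissues.

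Promoter sequence from RefSeq on the mouse build GRCm38.p6 was matched by symbol for 7 of the 9 genes. The 250 bases before the annotated start are printed for 3 genes: Gas1, with the widest range as a ratio of highest to lowest library, Ptch1, a known target of the GLI factors, and Gli2, the gene with a match to a GLI motif. They lie at chr13:60177536-60177785, chr13:63565736-63565985 and chr1:119053620-119053869, all on the minus strand, and are written 5′ to 3′ with that match in capitals. Which start the cells used was not measured.
Gas1: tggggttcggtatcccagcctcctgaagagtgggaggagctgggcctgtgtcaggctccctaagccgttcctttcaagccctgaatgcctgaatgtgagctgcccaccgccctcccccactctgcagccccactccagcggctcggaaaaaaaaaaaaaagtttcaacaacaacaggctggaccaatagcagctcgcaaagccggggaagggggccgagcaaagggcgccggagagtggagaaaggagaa
Ptch1: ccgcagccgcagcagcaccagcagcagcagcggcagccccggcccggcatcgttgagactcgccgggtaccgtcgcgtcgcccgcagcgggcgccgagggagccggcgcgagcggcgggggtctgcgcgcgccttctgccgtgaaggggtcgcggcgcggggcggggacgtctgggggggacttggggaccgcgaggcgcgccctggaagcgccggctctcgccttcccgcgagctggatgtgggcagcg
Gli2: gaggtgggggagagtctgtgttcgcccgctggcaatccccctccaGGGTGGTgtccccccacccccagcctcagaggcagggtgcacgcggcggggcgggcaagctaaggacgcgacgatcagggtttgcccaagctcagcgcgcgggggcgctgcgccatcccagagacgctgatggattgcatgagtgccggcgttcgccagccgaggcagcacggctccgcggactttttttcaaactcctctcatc
Windows of 300 bases, 250 before and 50 after the start, were searched on both strands. The GLI consensus GACCACCCA was in 0 of the 7 windows and in 0.253% of all 32851 windows. Its core ACCACCC, which lies within the consensus, was in 1 of the 7 windows and in 4.61% of all windows. The match in Gli2 is on the strand opposite to the gene, so that the printed strand reads GGGTGGT, from position -205 before the start. TGACNNNGC, the core of the antioxidant response element bound by NRF2, was in 0 of the 7 windows and in 12.4% of all. The GC content of the windows of Gas1, Gli2 and Ptch1 was 62.3%, 67.3% and 76.3%, against a median of 52.7% over all windows. Of the windows not printed, those of Smo, Gli3 and Hhip held 67.7%, 71.0% and 73.7%, while that of Cdon held 44.7%, below the median. A match of letters is a description and not a measured binding site.

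The libraries held 25016754 to 34877090 counted reads, and the mean correlation of a library with the others of its group was 0.9862 to 0.9909, with the lowest value in vehicle replicate 1 at 4 h. The labels do not say whether replicates came from separate cultures or animals, so the spread between libraries may be technical. Levels are given as CPM, read counts relative to a common library total, after TMM scaling across all 12 libraries, computed from raw counts because the deposited tables of the times were normalised separately. All 8 fibroblast markers on the marker list were detected, and their summed level was 9267 to 10486 CPM in vehicle and 9232 to 10999 CPM in treated cells at 4 h, 9371 to 11808 CPM in vehicle at 24 h and 4114 to 4410 CPM in treated cells at 24 h. Summed markers of leukocytes and macrophages lay at 91.7 to 100 CPM in vehicle and 65.2 to 86.1 CPM in treated cells at 4 h, 325 to 379 CPM in vehicle at 24 h and 144 to 165 CPM in treated cells at 24 h. The latter 6 markers were all called higher at 24 h than at 4 h in vehicle, beside 27.4% of all genes. With treatment 1 of them fell at 4 h, beside 3.71% of all genes. At 24 h 1 rose and 5 fell, beside 36.7% and 38.0% of all genes. Of the 8 fibroblast markers, 1 rose and 6 fell with treatment at 24 h, and of 6 endothelial markers 3 rose and 3 fell. Summed markers of pericytes and smooth muscle lay at 78.7 to 90.5 CPM in vehicle and 75.9 to 96.2 CPM in treated cells at 4 h, 32.0 to 37.7 CPM in vehicle at 24 h and 11.1 to 14.1 CPM in treated cells at 24 h. Epicardial and mesothelial markers summed to 66.1 to 79.5 CPM in vehicle and 62.6 to 70.5 CPM in treated cells at 4 h, and to 77.6 to 90.9 and 30.1 to 38.7 CPM at 24 h. Cardiomyocyte markers summed to 12 to 22.9 and 15.7 to 18.7 CPM at 4 h, and to 16.3 to 19.4 and 6.01 to 9.07 CPM at 24 h. At 24 h the treated sums thus lay below the vehicle sums for fibroblasts, leukocytes and macrophages, and pericytes and smooth muscle. The same held for epicardial and mesothelial markers and for cardiomyocyte markers. Endothelial markers summed to 36.3 to 53.8 CPM and Schwann cell markers to 0.481 to 1.15 CPM over all groups. In these lists the groups overlapped at 24 h. Endothelial sums were 36.3 to 43.8 CPM in vehicle and 40.4 to 41.6 CPM in treated cells, and Schwann cell sums 0.481 to 1.15 and 0.531 to 0.949 CPM. None of these markers was at 0 in all 12 libraries, and single groups were not checked for this. In culture-wide RNA, fewer cells of a type and less RNA per cell cannot be told apart, and the part of these shifts in the results below was not tested.

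Gas1 had the widest range, as a ratio of highest to lowest library, of the 7 genes that passed the filter on low counts. It lies at chr13:60322219-60325179 on the minus strand of GRCm39 (ENSMUSG00000052957, 2961 bases of transcript). In vehicle at 4 h its 3 libraries held 1.46, 1.44 and 3.59 CPM, and in treated cells at 4 h they held 3.07, 2.70 and 3.63 CPM. In vehicle at 24 h the libraries held 46.8, 23.8 and 63.5 CPM, and in treated cells at 24 h they held 2.60, 1.06 and 0.266 CPM. The groups overlapped at 4 h, whereas at 24 h every vehicle library lay far above every treated library. Behind these values stood 722 to 2110 reads per library in vehicle at 24 h and 6 to 63 reads in treated cells at 24 h, so the low group is the less precise. The log2 fold change, treated minus vehicle, was 0.54 (SE 0.33, n = 3 per group) at 4 h and -5.10 (SE 0.75) at 24 h, a 34.2-fold lower level. At 24 h this was the 22nd lowest of 15575 genes in the fit. The 24 h value was -5.97 without treated replicate 1, and -3.38 on the log2(FPKM + 1) scale, which understates changes of low genes. At 4 h the value was 1.11 without vehicle replicate 3, and the gene was then past the threshold used for the genome-wide calls.

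The Gas1 difference between treated and vehicle cells at 24 h came with a higher level in the vehicle cells at that time. In vehicle, Gas1 averaged 2.16 ± 1.24 CPM at 4 h and 44.7 ± 19.9 CPM at 24 h (SD, n = 3 each), a 20.9-fold higher level (log2 4.38, SE 0.58). All 3 libraries at 24 h lay above all 3 at 4 h, and the log2 difference ranked 8th highest of 16341 genes. Treated cells went from 3.13 ± 0.465 CPM at 4 h to 1.31 ± 1.19 CPM at 24 h. The libraries of these 2 treated groups were narrowly apart, with a highest value of 2.60 CPM at 24 h and a lowest of 2.70 CPM at 4 h. The vehicle libraries of 24 h are also an arm of the treatment difference that was known when the genes were chosen, so the vehicle time values are not independent of that choice. Time cannot be told apart from anything else that differed between the harvests, and the group means of the 24 h table carry a prefix (KD) that the labels do not explain. On the opposite strand Gas1 overlaps the noncoding gene Gm48488, whose counts in replicates 1 to 3 were 2, 0 and 3 in vehicle at 4 h, 30, 16 and 18 in vehicle at 24 h, and 2, 0 and 0 in treated cells at 24 h. Without a stated strand setting the reads of the overlapped stretch cannot be assigned to a strand. Of the 50-base words in Gas1 transcripts, 17.0% also occur in another gene on either strand. This can include a gene that overlaps Gas1 on the opposite strand, and the part of such overlap was not tested.

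**Figure D1:**
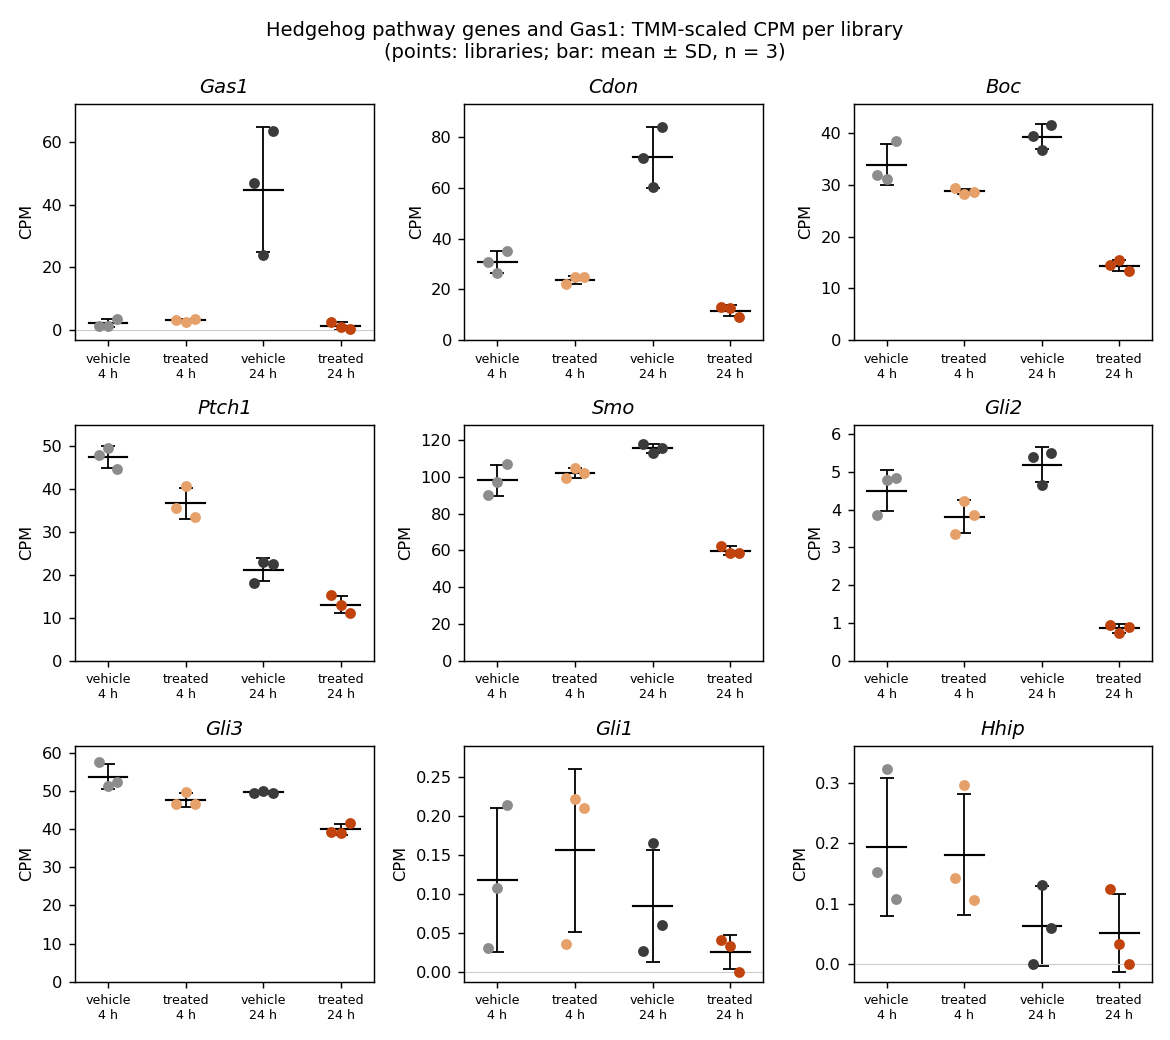
TMM-scaled CPM (linear y axis, one scale per gene) of the 9 genes in vehicle and treated cardiac fibroblasts at 4 h and 24 h; points are libraries, and bars are mean ± SD over 3 libraries. Gas1 and Cdon stand out in vehicle at 24 h, at 44.7 and 72.1 CPM, while Ptch1 steps down from 47.3 CPM in vehicle at 4 h to 13.1 CPM in treated cells at 24 h.

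Cdon and Boc, the other coreceptors, are related membrane proteins of the immunoglobulin superfamily that bind Hedgehog ligands beside Ptch1. Cdon (chr9:35332424-35418948, plus strand, ENSMUSG00000038119) held 30.9, 26.4 and 35.1 CPM in vehicle at 4 h and 22.0, 24.8 and 24.7 CPM in treated cells. At 24 h it held 71.8, 60.3 and 84.3 CPM in vehicle and 13.1, 12.5 and 9.0 CPM in treated cells. Treated libraries lay below vehicle libraries at both times, narrowly at 4 h and by a wide gap at 24 h. The log2 fold change of Cdon was -0.37 (SE 0.12) at 4 h and -2.64 (SE 0.20) at 24 h, a 6.25-fold lower level. In vehicle, Cdon was 2.34-fold higher at 24 h than at 4 h (log2 1.23, SE 0.14, higher in 3 of 3 libraries), so the 24 h difference again combined a higher vehicle level with a lower treated level. On the log2(FPKM + 1) scale the 24 h value of Cdon was -2.04.

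Boc (chr16:44305412-44379260, minus strand, ENSMUSG00000022687) differed less between the times in vehicle than the other coreceptors. Its libraries held 32.0, 31.2 and 38.5 CPM in vehicle at 4 h and 39.5, 36.8 and 41.6 CPM in vehicle at 24 h. Treated libraries held 29.3, 28.2 and 28.7 CPM at 4 h and 14.4, 15.4 and 13.3 CPM at 24 h. No treated library reached a vehicle library of its time, and the treated level at 24 h was 2.74-fold lower (log2 -1.45, SE 0.08) against -0.24 (SE 0.10) at 4 h. The time difference of Boc in vehicle was log2 0.21 (SE 0.09), and the groups overlapped. It was not called, but it was without vehicle replicate 3 at 4 h (0.32), without vehicle replicate 2 at 24 h (0.26) and with library totals as the scaling (0.24).

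Ptch1, the receptor and a target of its own pathway, followed another course from its coreceptors. It lies at chr13:63656142-63721412 on the minus strand (ENSMUSG00000021466), 3.33 Mb from Gas1. The libraries held 47.9, 49.5 and 44.5 CPM in vehicle at 4 h and 35.6, 40.6 and 33.5 CPM in treated cells at 4 h. At 24 h they held 18.1, 23.0 and 22.5 CPM in vehicle and 15.2, 12.9 and 11.1 CPM in treated cells. Treated libraries lay below the vehicle libraries at both times, and both groups were lower at 24 h than at 4 h. In vehicle Ptch1 was 2.23-fold lower at 24 h than at 4 h (log2 -1.16, SE 0.11, lower in 3 of 3 libraries), the reverse of Gas1 and Cdon. The treatment difference was log2 -0.37 (SE 0.10) at 4 h and -0.70 (SE 0.12) at 24 h. Ptch1 was the member called at 4 h, but that call ended with RLE size factors (log2 -0.36), on FPKM (-0.27), without any 1 of the treated replicates (-0.45 to -0.31), and without vehicle replicate 2 (-0.34) or 3 (-0.41).

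Smo, the transducer that Ptch1 restrains, had the highest level per length of the 9 genes in all 4 groups. It lies at chr6:29735502-29761364 on the plus strand (ENSMUSG00000001761). Its libraries held 90.3, 97.5 and 107 CPM in vehicle and 99.5, 105 and 102 CPM in treated cells at 4 h, where the groups overlapped. At 24 h they held 118, 113 and 116 CPM in vehicle and 62.6, 58.8 and 58.5 CPM in treated cells. The treated libraries at 24 h stood apart from the 9 other libraries. The log2 fold change was 0.05 (SE 0.09) at 4 h and -0.95 (SE 0.05) at 24 h, a 1.94-fold lower level. With library totals, or without vehicle replicate 1, the 4 h value was -0.0. In vehicle Smo was 1.18-fold higher at 24 h than at 4 h (log2 0.23, SE 0.07, higher in 3 of 3 libraries).

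Gli2 and Gli3, the factors through which Smo acts, differed from each other. Gli2, mainly an activator, lies at chr1:118761862-118981349 on the minus strand (ENSMUSG00000048402). Its libraries held 3.87, 4.77 and 4.84 CPM in vehicle and 3.35, 4.22 and 3.87 CPM in treated cells at 4 h. At 24 h they held 5.39, 4.65 and 5.51 CPM in vehicle and 0.949, 0.730 and 0.886 CPM in treated cells. The groups overlapped at 4 h and were far apart at 24 h. The treated level at 24 h was 6.12-fold lower (log2 -2.61, SE 0.22) and rested on 20 to 23 reads per library, and on the log2(FPKM + 1) scale the value was -0.62. At 4 h the log2 fold change was -0.23 (SE 0.17). The vehicle level of Gli2 at 24 h was 1.16-fold that at 4 h (log2 0.21, SE 0.16), and the groups overlapped.

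Gli3, mainly a repressor in the absence of ligand, moved less. It lies at chr13:15637820-15904611 on the plus strand (ENSMUSG00000021318). Its libraries held 57.5, 51.4 and 52.5 CPM in vehicle and 46.7, 49.7 and 46.6 CPM in treated cells at 4 h, and 49.4, 50.1 and 49.4 CPM in vehicle and 39.3, 39.1 and 41.6 CPM in treated cells at 24 h. Treated libraries lay below vehicle libraries at both times, with a log2 fold change of -0.17 (SE 0.09) at 4 h and -0.32 (SE 0.06) at 24 h. In vehicle the time difference of Gli3 was log2 -0.12 (SE 0.07). The mean ratio of treated to vehicle at 24 h was thus 0.163 for Gli2 and 0.802 for Gli3.

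Gli1 and Hhip, targets that report pathway activity, were close to undetected in every group. Gli1 (chr10:127165751-127177843, minus strand, ENSMUSG00000025407) had 1, 3 and 6 reads in vehicle and 1, 6 and 6 reads in treated cells at 4 h. At 24 h it had 1, 5 and 2 reads in vehicle and 1, 1 and 0 reads in treated cells. Hhip (chr8:80692480-80784635, minus strand, ENSMUSG00000064325), which encodes a ligand-binding inhibitor, had 5, 9 and 3 reads in vehicle and 4, 8 and 3 in treated cells at 4 h, and 0, 4 and 2 in vehicle and 3, 1 and 0 in treated cells at 24 h. The groups of both genes overlapped, and neither gene passed the filter on low counts. A difference between groups was not detectable at this depth. Gli1 also overlaps Arhgap9 on the opposite strand, which had 1 to 75 reads per library.

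Over the set, 7 of the 9 genes passed the filter. At 4 h 0 were called higher and 1 lower, against 3.45% and 3.71% of 15336 genes tested at an edgeR adjusted p under 0.05. At 24 h 0 were called higher and 7 lower, against 36.7% and 38.0% of 15575 genes tested. Nothing is read from these counts, since the genes were picked with both comparisons known and most genes tested moved at 24 h. The median log2 fold change of the 7 genes was -0.23 at 4 h and -1.45 at 24 h, beside -0.01 and -0.02 over all genes tested. In the vehicle time comparison, 3 of the 7 were called higher (Gas1, Cdon and Smo) and 1 lower (Ptch1), against 27.4% and 27.0% of 16341 genes, and again nothing is read from the counts. The median there was 0.21, beside 0.01 over all genes. With library totals in place of TMM, the share of genome-wide calls that were higher was 34.5% instead of 48.2% at 4 h and 39.0% instead of 49.1% at 24 h, and the median of all genes at 24 h shifted from -0.02 to -0.21; all 7 genes were lower at 24 h under either scaling.

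The response at 24 h minus that at 4 h, as log2 values in a fit of all 12 libraries, was -5.64 for Gas1, -2.37 for Gli2, -2.27 for Cdon, -1.21 for Boc, -1.0 for Smo, -0.33 for Ptch1 and -0.14 for Gli3. The responses of Ptch1 and Gli3 thus differed least between the times. Treated cells alone had lower CPM of all 7 genes at 24 h than at 4 h with no overlap of libraries, from 1.19-fold lower for Gli3 and 1.70-fold for Smo to 2.80-fold for Ptch1 and 4.46-fold for Gli2. No fit was run for this comparison and no share of all genes stands beside it, so nothing is read from the count.

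**Figure D2:**
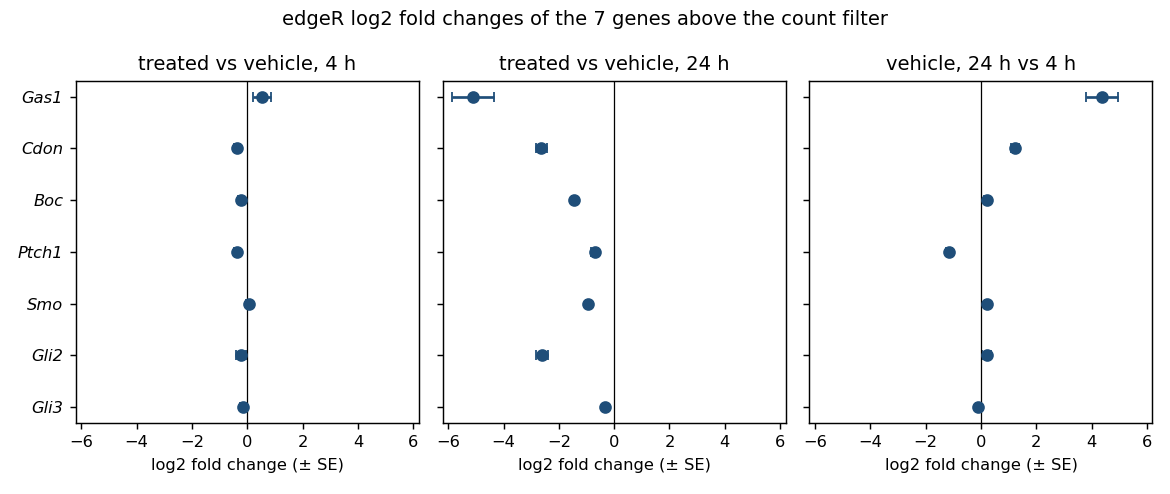
Log2 fold changes with SE (x axis) of the 7 genes above the low-count filter, treated against vehicle at 4 h and at 24 h and vehicle at 24 h against 4 h, with 3 libraries per group. At 24 h all points lie left of 0, from -5.10 for Gas1 to -0.32 for Gli3, and in vehicle Gas1 lies at 4.38 and Ptch1 at -1.16.

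Levels between genes were compared per kilobase of gene length. In vehicle at 4 h, Smo stood first at 17.5 ± 1.52 CPM per kb (SD, n = 3 here and below), followed by Boc at 7.61 ± 0.91, Gli3 at 5.61 ± 0.339, Cdon at 3.99 ± 0.565 and Ptch1 at 3.33 ± 0.179. Gas1 at 0.730 ± 0.417 and Gli2 at 0.655 ± 0.0792 CPM per kb came next, and their libraries overlapped, as did those of Cdon and Ptch1. Gli1 at 0.0236 ± 0.0186 and Hhip at 0.0214 ± 0.0125 were last and also overlapped. Treated cells at 4 h kept this order of all 9 genes. In vehicle at 24 h, Gas1 came second at 15.1 ± 6.73 CPM per kb, between Smo at 20.6 ± 0.450 and Cdon at 9.35 ± 1.55, and Boc followed at 8.83 ± 0.543. The libraries of each adjacent pair among those 4 overlapped. Gli3 at 5.18 ± 0.0423, Ptch1 at 1.5 ± 0.193 and Gli2 at 0.754 ± 0.0676 CPM per kb followed without overlap. In treated cells at 24 h, Smo at 10.7 ± 0.410 was followed by Gli3 at 4.17 ± 0.145, Boc at 3.23 ± 0.235, Cdon at 1.5 ± 0.287, Ptch1 at 0.921 ± 0.143, Gas1 at 0.442 ± 0.400 and Gli2 at 0.124 ± 0.0164 CPM per kb. The libraries of Ptch1 and Gas1 overlapped there, as did those of Gas1 and Gli2. At 24 h Gli3 was thus second in treated cells, a rank that Gas1 held by its mean in vehicle.

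Across the 12 libraries, the log2 CPM of Smo and Gli2 had a Pearson r of 0.98, that of Smo and Boc 0.97, and that of Gas1 and Cdon 0.91. Gas1 and Ptch1 had an r of 0.02. These values describe 4 group levels more than 12 independent points and carry no test. Among 13765 protein-coding genes, those most like Gas1 were Tmem176a (r = 0.991), a membrane protein, Tle2 (0.987), a Groucho-type corepressor, Cemip (0.986), a hyaluronan-degrading protein, Ift140 (0.982), a subunit of the retrograde intraflagellar transport complex, and Spon2 (0.977), an extracellular matrix protein. Spon2 had 17.7 ± 6.38 CPM in vehicle at 4 h, 18.6 ± 5.44 in treated cells at 4 h, 174 ± 56.0 in vehicle at 24 h and 10.2 ± 3.56 in treated cells at 24 h. Ift140 had 9.15 ± 0.801, 9.18 ± 0.926, 16.1 ± 1.01 and 7.63 ± 1.59 CPM in the same order of groups. Those most like Ptch1 were Foxp1 (0.992), Zbtb38 (0.992), both transcription factors, and Inhba (0.988), the activin A subunit. In all, 362 genes reached an r of 0.9 with Gas1 and 601 with Ptch1, and Spearman ranking shared only 1 of the 5 and 0 of the 3 named genes, so the order among these genes depends on the measure.

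Other genes of the pathway were taken from 6 lists of 130 genes, of which 126 were found by name. Shh, Gfra3 and Gfral were not found and so were not used here, and Ift25 is another name of the listed Hspb11, under which that gene was found. The lists were drawn up with results of these data known, so they are no independent evidence of a direction. At 4 h, 1 of the 121 genes that passed the filter was higher and 10 were lower, beside 3.45% and 3.71% of all genes. At 24 h, 31 of 119 were higher and 59 lower, beside 36.7% and 38.0% of all genes. The median log2 fold change of the lists together was -0.07 at 4 h and -0.24 at 24 h, beside -0.01 and -0.02 over all genes. In vehicle, 43 of 121 rose with time and 32 fell, beside 27.4% and 27.0% of all genes. These shares of all genes are the background of each list below.

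Among ligands and the genes that release them, 0 of 6 passed the test at 4 h, and at 24 h 1 of 4 rose and 2 fell. The ligand genes were scarce: Ihh had 14 to 26 reads in vehicle at 4 h and 0 to 8 in vehicle at 24 h, and Dhh had at most 12 reads in any library. Hhat, which attaches palmitate to the ligands, rose at 24 h from 7.56 ± 0.739 to 11.1 ± 1.63 CPM (log2 0.54, SE 0.13, edgeR adjusted p = 0.000985). Disp1, which releases the lipid-modified ligands, fell slightly from 83.7 ± 2.72 to 75.0 ± 1.55 CPM (log2 -0.16, SE 0.05, adjusted p = 0.0063), a call that ended with all 12 libraries in the fit (log2 -0.16, adjusted p = 0.0607). Its relative Disp2, named after its values were seen, had log2 -3.04 at 24 h from 44 to 49 reads in vehicle and 2 to 7 in treated libraries. In vehicle, Ihh, Disp1 and Scube3, also named after the values were seen, fell with time (log2 -2.63, -0.36 and -1.09).

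Of the other receptors and surface proteins, 0 of 4 passed at 4 h, and at 24 h 1 rose. Mosmo, a membrane protein that restrains Smo, had 29.1 ± 1.58 CPM in vehicle and 33.5 ± 1.34 in treated cells (log2 0.20, SE 0.07, edgeR adjusted p = 0.0149), and the difference was log2 0.01 (adjusted p = 0.949) with library totals. The call of Mosmo also ended without treated replicate 1 or 2 or vehicle replicate 2 or 3, where its log2 value was 0.16 to 0.18 (adjusted p 0.0519 to 0.083). In vehicle, Lrp2, Gpc3 and Mosmo fell with time (log2 -2.75, -0.61 and -0.48), named after their values were seen.

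In the relay behind Smo, 1 of 28 genes was lower at 4 h, and at 24 h 8 rose and 12 fell, with a median log2 of -0.10 beside -0.02 over all genes. The share lower at 4 h is close to the 3.71% of all genes, and the shares at 24 h are near 36.7% and 38.0%. At 4 h the gene was Dyrk2, a kinase that phosphorylates GLI proteins, at 109 ± 4.36 CPM in vehicle and 85.4 ± 4.86 in treated cells (log2 -0.36, SE 0.08, edgeR adjusted p = 0.0231). At 24 h Evc, which relays Smo activity at the base of the cilium, fell 4.05-fold from 33.1 ± 1.68 to 8.21 ± 0.182 CPM (log2 -2.02, SE 0.09, adjusted p = 6.3e-14). The beta-arrestin gene Arrb1 fell 2.93-fold (log2 -1.55, SE 0.11, adjusted p = 8.03e-11), and Prkaca, the catalytic subunit of protein kinase A that restrains GLI proteins, fell 2.72-fold (log2 -1.45, SE 0.05, adjusted p = 2.13e-15). Dyrk1a, another kinase reported to act on GLI proteins, rose 2.38-fold from 58.3 ± 2.74 to 139 ± 1.43 CPM (log2 1.25, SE 0.05, adjusted p = 1.92e-14). Evc, which favours signalling, and Prkaca, which restrains it, thus both fell. In vehicle 9 of the 28 rose and 9 fell.

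Among genes reported as GLI or Hedgehog targets, 1 of 23 rose and 7 fell at 4 h, and 4 rose and 16 fell at 24 h, beside 3.45% and 3.71% of all genes at 4 h and 36.7% and 38.0% at 24 h. The list median was -0.21 and -1.40 log2, beside -0.01 and -0.02 over all genes. Many of these genes have other regulators, among them cell-cycle genes. Mycn, a growth-promoting transcription factor, fell 5.27-fold at 4 h from 15.9 ± 3.0 to 3.0 ± 0.311 CPM (log2 -2.40, SE 0.17, edgeR adjusted p = 1.27e-05) and 7.86-fold at 24 h (log2 -2.98, SE 0.37, adjusted p = 0.000617). Bcl2, a survival factor, fell 1.61-fold at 4 h (adjusted p = 0.00568) and 3.70-fold at 24 h (adjusted p = 3.49e-08). Osr1, a mesenchymal transcription factor, fell 1.60-fold at 4 h from 44.0 ± 5.29 to 27.5 ± 2.92 CPM (adjusted p = 0.00492). At 24 h Sfrp1, a secreted Wnt inhibitor, fell 7.77-fold from 268 ± 58.7 to 34.7 ± 5.26 CPM (adjusted p = 0.000374), and Ccnd1, cyclin D1, fell 6.2-fold from 172 ± 5.18 to 27.8 ± 5.22 CPM (adjusted p = 3.48e-06). Foxd1, a forkhead factor, was the target that rose at 4 h, from 8.01 ± 1.98 to 14.4 ± 1.46 CPM (log2 0.85, SE 0.18, adjusted p = 0.0145). In vehicle 6 of the 23 rose and 11 fell with time, with a median of -0.09 beside 0.01 over all genes.

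The primary cilium houses the pathway, and its list held 48 tested genes. At 4 h 1 fell: Ttc8, a subunit of the BBSome coat complex, from 8.47 ± 0.468 to 6.06 ± 0.106 CPM (log2 -0.48, SE 0.13, edgeR adjusted p = 0.0457). At 24 h 14 rose and 23 fell, beside 36.7% and 38.0% of all genes, with a median log2 of -0.24 beside -0.02. Cc2d2a, of the transition zone at the ciliary base, fell 4.94-fold from 23.3 ± 0.940 to 4.66 ± 1.74 CPM (adjusted p = 5.19e-05), and Dync2li1, of the retrograde dynein motor, fell 2.79-fold (adjusted p = 0.000101). Cep290, also of the transition zone, rose 2.49-fold from 14.6 ± 0.656 to 36.4 ± 0.810 CPM (adjusted p = 5.01e-12), and Bbs5, of the BBSome, rose 2.96-fold (adjusted p = 2.13e-10). Genes of 1 structure thus lay on both sides. In vehicle, where 27.4% of all genes rose and 27.0% fell, 25 of the 48 rose with time and 2 fell, Kif3b and Dync2h1 (log2 -0.22 and -0.56, named after their values were seen), with a median of 0.32 beside 0.01 over all genes.

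The last list held receptors of the GDNF family, to which Gas1 is related in sequence, and genes named growth arrest-specific. At 4 h 1 of 12 fell: Pmp22, a membrane protein first found as Gas3, from 150 ± 10.2 to 115 ± 7.73 CPM (log2 -0.39, SE 0.09, edgeR adjusted p = 0.021). At 24 h 3 of 12 rose and 6 fell, beside 36.7% and 38.0% of all genes. Pmp22 fell 4.88-fold from 218 ± 5.17 to 44.7 ± 5.37 CPM (log2 -2.29, SE 0.07, adjusted p = 2.29e-12), Gas6, a secreted ligand of TAM receptors, fell 2.78-fold from 185 ± 48.7 to 67.0 ± 8.44 CPM (adjusted p = 0.00638), and Gas7 fell 1.64-fold (adjusted p = 0.000103). Gdnf, the growth factor, rose 6.00-fold from 4.49 ± 0.804 to 27.0 ± 1.43 CPM (log2 2.59, SE 0.12, adjusted p = 1.49e-13). In vehicle, Gas6, Pmp22 and Gas2l3 rose with time (log2 0.97, 0.54 and 0.84) while Gas7, Gdnf, Ret and Gfra1 fell (log2 -1.29, -2.83, -2.13 and -0.71), all named after their values were seen. The growth arrest-specific genes did not move as a block, since Gas2l3 and Gas8 rose at 24 h in treated cells (log2 0.51 and 0.69), where Gas6, Gas7 and Pmp22 fell.

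The 11 calls at 4 h outside the 9 genes were sensitive to which libraries were in the fit. Without treated replicate 3, 3 were called, namely Mycn (log2 -2.32), Bcl2 (-0.69) and Osr1 (-0.67). The calls of Dyrk2, Foxd1, Ttc8 and Pmp22 ended on FPKM and on leaving out 1 library in several cases, and that of Ttc8 also with no filter. Over the fits with 1 library left out, log2 values were -0.33 to -0.41 for Dyrk2 and 0.65 to 0.97 for Foxd1. Those of Ttc8 were -0.44 to -0.51 and those of Pmp22 -0.34 to -0.44. Where the calls of these 4 genes ended in such a fit, the edgeR adjusted p was up to 0.155, 0.0847, 0.166 and 0.0925. On the log2(FPKM + 1) scale, the value of Mycn was -1.57 at 4 h and -1.84 at 24 h, and the 24 h values of Evc, Arrb1, Bcl2, Cc2d2a and Gdnf were -1.35, -0.89, -0.88, -1.38 and 1.88, all still past the threshold.

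**Figure D3:**
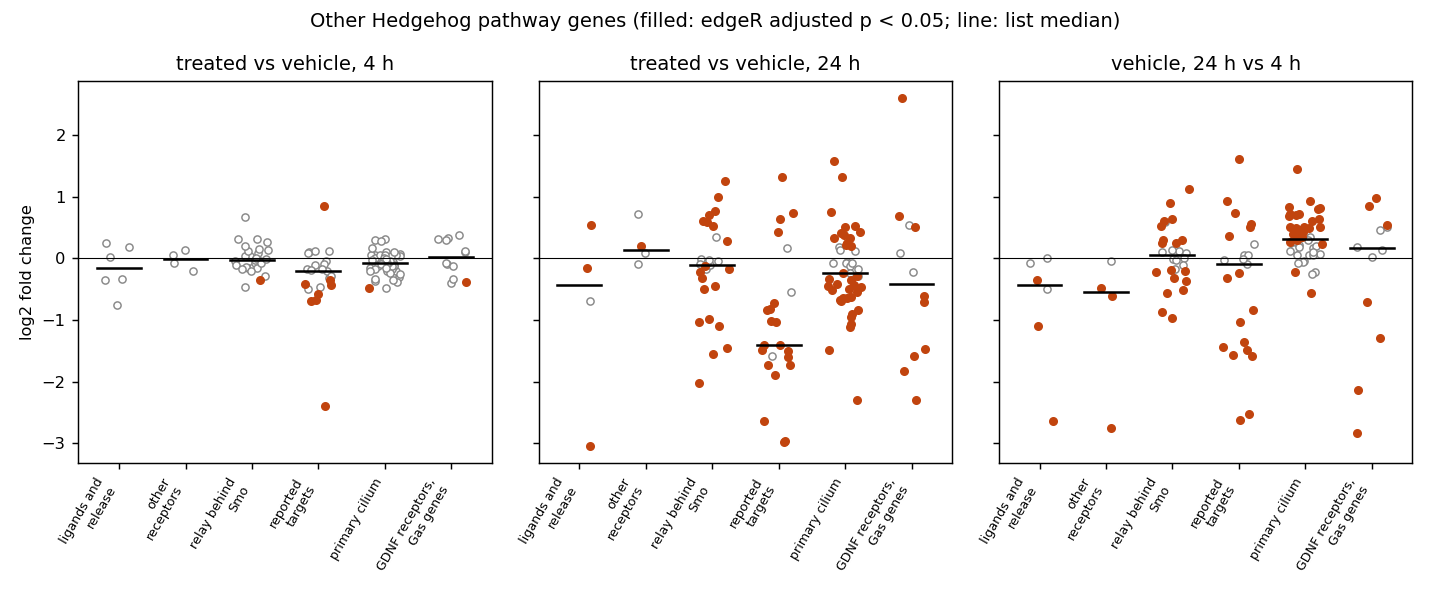
Log2 fold change (y axis) of every tested gene of the 6 lists of other pathway genes, in 3 comparisons of 3 against 3 libraries; filled points passed an edgeR adjusted p under 0.05 and lines are list medians. At 24 h the reported targets lie lowest with a median of -1.40, and in vehicle the cilium genes lie at a median of 0.32.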

How the data were processed

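RNA sequencing of 12 libraries was analysed from the tables that the authors deposited, 1 comparison table per treatment time. Per the file headers, these hold raw read counts per gene and library, and FPKM values that the authors computed per library. The submitters' processing notes name HISAT2 2.0.5, featureCounts 1.5.0-p3, DESeq2 and DESeq without role or order, and the build GRCm39 (mm39); the strand setting is not given in the sources used here. The names of the group means in the 24 h table carry a prefix, KD, that the labels do not explain.

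The 9 genes and the lists of other pathway genes were chosen with earlier results of these data known; some further pathway genes are not reported here and are in no count. The vehicle time comparison had been planned as a test of the 9 genes and is given as a description, because its 24 h libraries are an arm of a comparison known when they were chosen. Groups and replicate numbers follow the labels. Tests on these counts used edgeR 4.0.16 in R 4.3.3 (quasi-likelihood F test, limma 3.58.1 loaded), with its default filter on low counts, TMM scaling, robust dispersions and Benjamini-Hochberg adjustment across every gene in the fit; calls are at an adjusted p under 0.05. Each treatment comparison used its own 6 libraries, and the comparison of vehicle times used all 12, joined by gene identifier with 0 for a gene missing from a table. SE is the log2 fold change divided by the square root of the test's F value. Total counts per library ranged from 25016754 to 34877090. Alternatives were DESeq2 1.42.0, RLE factors, library totals, no filter, all 12 or 6 libraries in the fit, replicate number as a term, limma-trend on log2(FPKM + 1) for genes of mean FPKM of at least 0.1, and each library left out.

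Of each list and treatment time, up to 4 called genes with the largest absolute change were named if mean FPKM reached 1 in the group with the higher level, and the 5 genes with the highest Pearson r with Gas1 and the 3 with Ptch1 over log2 CPM (prior count 2). Genes outside this rule are marked as named after their values were seen. Gene positions are those of the deposited tables. Promoter windows came from RefSeq on GRCm38.p6, and words of 50 bases from the transcripts of GENCODE on GRCm38.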

Additional observations from a re-analysis of the deposited data

Results flagged for a closer look

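The response to treatment differed between 24 h and 4 h for 19 of the other pathway genes named by rule, by an interaction term in an edgeR quasi-likelihood fit of all 12 libraries. Values are the 24 h log2 response minus the 4 h log2 response. Among ligand and surface genes it was 0.53 for Hhat (adjusted p = 0.0249), -0.35 for Disp1 (0.0069) and 0.40 for Mosmo (0.00744). Relay genes gave -1.97 for Evc, -1.51 for Arrb1 and -1.41 for Prkaca, and 1.06 for Dyrk1a. Reported targets gave -2.76 for Sfrp1, -2.27 for Ccnd1, -1.19 for Bcl2 and -0.91 for Osr1. Cilium genes gave -2.23 for Cc2d2a, -1.53 for Dync2li1 and -0.64 for Ttc8, but 1.47 for Bbs5 and 1.26 for Cep290. Gdnf gave 2.29, and Pmp22 and Gas6 gave -1.90 and -1.57. Mycn did not pass this test (-0.57, adjusted p = 0.26), nor did Dyrk2 (0.18, 0.15), Foxd1 (0.48, 0.126) or Gas7 (-0.38, 0.0741). These genes were named because they were called in a treatment comparison that shares its libraries with the interaction. Passing the interaction was thus partly set by that choice, and nothing is read from the count. No share of all genes is given for the interaction, while 7.16% of all genes were called at 4 h and 74.7% at 24 h.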

How the results depend on the processing

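Of the other pathway genes, 11 were called at 4 h, and this count was 20 with all 12 libraries in the fit, 5 with limma-trend on FPKM, and 3 to 18 when 1 library was left out, lowest without treated replicate 3 and highest without vehicle replicate 1; without treated replicate 1 or 2 it was 6 and 5. The cause of these differences was not tested. The count at 24 h stayed at 81 to 95 around 90 under all alternatives run, that of vehicle time at 65 to 77 around 75, and that of the 9 genes in vehicle time at 4 or 5 around 4. Of the values of single other pathway genes under each alternative, 312 kept their direction and side of the threshold and 26 lost the call, those of Dyrk2, Foxd1, Ttc8, Pmp22, Disp1 and Mosmo. Of the untested treatment values of the 9 genes, 170 moved by less than the spread between replicates and 12 by more. The larger moves were at 24 h for each gene that passed the filter, with limma-trend on FPKM. Further ones were Smo, Gli2, Gli3 and Boc at 24 h with library totals, and Gas1 at 4 h without vehicle replicate 3. As for calls among all these treatment values, Ptch1 at 4 h was no longer past the threshold in 7 settings. Cdon and Gas1 at 4 h passed it in 4 and 1. In vehicle time, Boc passed it in 3 settings. No called value changed sign. Spearman ranking changed the genes most like Gas1 and Ptch1, and the GLI core matched 1 promoter where the consensus matched 0. The FPKM alternative was not run for vehicle time, because the tables of the times were normalised separately. The deviations of same-numbered libraries correlated by less than 0.1 (correlations 0.0728, 0.06 and 0.0899 at 4 h, 0.0221, 0.0144 and -0.0305 at 24 h, and -0.00916, 0.0438 and 0.0398 between the vehicle times), so the numbers were not taken as pairs. At 4 h differently numbered pairs lay lower, at -0.0882 to 0.0192, and every library correlated best with its own number, a hint from the data that the labels do not give. With a replicate block, the genes called among all tested at 4 h were 1953 (12.7%) in place of 1098 (7.16%), and the other pathway genes called were 15 at 4 h, 89 at 24 h and 75 in vehicle time, 4 of the 9 genes were called in vehicle time, and Cdon passed the threshold at 4 h. Low counts limit the treated levels of Gas1 and Gli2 at 24 h and all levels of Gli1 and Hhip.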
